A study of Triticum aestivum with 8 samples.

Results

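Starch in wheat is made from ADP-glucose and broken down again by amylases, and 3 genes of these steps could be followed on the arrays: AGP-S and GBSS-I on the side of synthesis and BMY1 on the side of breakdown. They were taken by symbol or synonym from the platform annotation and from RefSeq's gene names for the bread wheat assembly IWGSC CS RefSeq v2.1, which served for names alone. Each name was paired with 1 probe set, which gives 3 of the 771 annotated genes and 3 of the 61179 probe sets tested, 1 each for AGP-S (LOC543299), GBSS-I (LOC543395) and BMY1 (LOC543318). The rule went by names and used no measured value, although earlier results of these arrays were known when the genes were chosen.

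Leaves of bread wheat (Triticum aestivum) were collected from 4 groups of plants, all labelled as 48 days old. Droughted plants of the cultivar C306 had received no water since day 27, that is for 21 days, and C306 controls were watered throughout. Plants of the cultivar WL711 were treated in the same 2 ways. C306 is known as a drought-tolerant Indian wheat and WL711 as a drought-sensitive one. Each group had 2 arrays, labelled as biological replicates, and whether a sample pooled leaves of several plants was not given in the sources used here. The precision of the values below is limited by having 8 arrays in all.

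ADP-glucose pyrophosphorylase, built from small and large subunits, makes ADP-glucose and is regarded as the committed step of starch synthesis. AGP-S names its small subunit. Granule-bound starch synthase I, encoded by GBSS-I, also called waxy or Wx-A1, builds amylose, the mostly unbranched part of starch. It is best known from the endosperm of the grain, where its loss gives waxy wheat. Beta-amylase, encoded by BMY1, releases maltose from the ends of glucan chains. In leaves, transitory starch is laid down by day and degraded at night, while starch in the grain is a long-term store. Beta-amylases also occur in cereal leaves and grains. For LOC543318 the gene table lists the name amy1 beside BMY1, a name used more often for alpha-amylases, so its identity as a beta-amylase gene rests on that synonym.

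The values are log2 signals that had been centred, so that the median of each probe set over the 8 arrays was 0. A value of 0.50 therefore means 0.50 log2 units above that probe set's own middle value. The level of one gene cannot be set against another, and whether a transcript was abundant or near background in leaves cannot be read. Bread wheat carries 3 genomes with closely similar gene copies. A probe set named for 1 copy may also measure the others, which was not tested, since no probe sequence was used here. In bulk leaf samples, fewer cells of a type and less RNA per cell cannot be told apart.

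None of the 3 genes passed the test in any comparison. Under drought, AGP-S read higher in both cultivars and GBSS-I lower in both, each by at most 0.30 log2 units, and neither difference passed. For GBSS-I the droughted and watered arrays overlapped in each cultivar, and the WL711 difference was 0.020 without WL711 control replicate 1. Over both waterings, a comparison added after the values had been seen, GBSS-I read lower in C306 than in WL711 by 0.38 log2 units (SE 0.13). That difference also missed the threshold. All 4 C306 arrays lay below all 4 WL711 arrays, as for 13.2% of all probe sets, and the nearest arrays stood at -0.042 and 0.042. The replicates of BMY1 lay farther apart in 3 of 4 groups than any 2 group means, which spanned 0.48. The threshold was an adjusted p under 0.05 (Benjamini-Hochberg, over all 61179 probe sets) in limma, fitted over the 8 arrays with 4 group means. SE is the moderated standard error of that fit.

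AGP-S stood at 0.036 and 0.14 on the droughted C306 arrays, against -0.43 and 0.014 on the watered C306 arrays (centred log2, replicates 1 and 2). It stood at 0.095 and -0.014 in droughted WL711, against -0.21 and -0.21 in watered WL711. In both cultivars each droughted array lay above each watered array, narrowly in C306, where the lower droughted array and the higher watered one differed little. The group means were 0.086 ± 0.071 in droughted C306 and -0.21 ± 0.32 in watered C306 (SD, n = 2). They were 0.040 ± 0.077 in droughted WL711 and -0.21 ± 0.0025 in watered WL711 (SD, n = 2).

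The log2 difference of AGP-S between droughted and watered plants was 0.30 in C306 (SE 0.17, 95% interval -0.10 to 0.69, limma adjusted p = 0.842). In WL711 it was 0.25 (SE 0.17, 95% interval -0.15 to 0.64, adjusted p = 0.555). The mean over both cultivars was 0.27 (SE 0.12), which as a fold is 1.21 with an interval from 0.994 to 1.47. This mean missed the threshold, with an adjusted p of 0.461 and an unadjusted p of 0.0561. The estimates for the cultivars differed by 0.048 (C306 minus WL711, SE 0.25), with an interval from -0.51 to 0.61 that allows a response larger in either cultivar. Without C306 control replicate 1, the lowest AGP-S value of all, the C306 difference was 0.072, and without C306 control replicate 2 it was 0.52. The mean over both cultivars was 0.16 and 0.38 without these same arrays.

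Non-overlap of the droughted and watered arrays, as for AGP-S, was common on this platform. It was found for 38.6% of all probe sets in C306, 17.2% with the droughted arrays higher, and for 43.5% in WL711, 21% with the droughted arrays higher. Among the starch genes it was 1 of 3 in each cultivar. A larger absolute drought difference than that of AGP-S was read by 18.2% of all probe sets in C306 and by 38.0% in WL711. Between cultivars, AGP-S differed by 0.046 under drought (C306 minus WL711, SE 0.17, 95% interval -0.35 to 0.44) and by -0.0021 under control watering (SE 0.17, 95% interval -0.40 to 0.39). The cultivars overlapped in both settings.

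**Figure D1:**
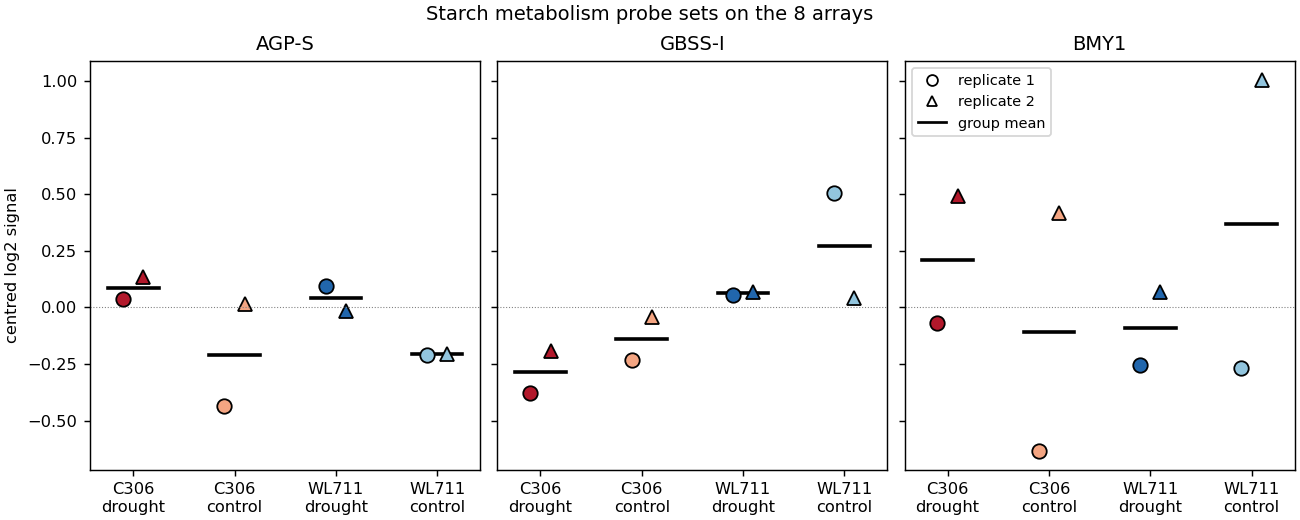
Centred log2 signal (vertical axis) of AGP-S, GBSS-I and BMY1 on the 8 arrays, by cultivar and watering. Circles are replicate 1, triangles replicate 2, and bars group means. AGP-S is above its watered arrays in droughted plants of both cultivars, as for 17.2% of all probe sets in C306 and 21% in WL711. The 4 C306 arrays of GBSS-I lie below the 4 WL711 arrays, as for 13.2% of all probe sets. The replicates of BMY1 lie far apart.

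GBSS-I stood at -0.38 and -0.19 on the droughted C306 arrays, against -0.23 and -0.042 on the watered C306 arrays. In WL711 it stood at 0.054 and 0.070 under drought, against 0.50 and 0.042 under control watering. Droughted and watered arrays overlapped in each cultivar. The log2 difference between droughted and watered plants was -0.15 in C306 (SE 0.18, 95% interval -0.57 to 0.27) and -0.21 in WL711 (SE 0.18, 95% interval -0.63 to 0.21, limma adjusted p = 0.639). The WL711 value rested on the watered replicate 1: it was 0.020 without that array and -0.44 without watered replicate 2. The C306 value was -0.24 without watered C306 replicate 1 and -0.052 without watered C306 replicate 2. Over both cultivars the drought difference was -0.18 (SE 0.13, adjusted p = 0.625), at -0.064 without WL711 control replicate 1 and -0.30 without WL711 control replicate 2. The 2 cultivars' differences lay 0.063 apart (C306 minus WL711, SE 0.26, 95% interval -0.53 to 0.66).

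The cultivar differences of GBSS-I were larger in size than its drought differences, though the 2 were not tested against each other. The median absolute difference over all probe sets was also larger between cultivars, at 0.217 over both waterings, than for drought, at 0.122 over both cultivars. Under drought the group means were -0.29 ± 0.13 in C306 and 0.062 ± 0.012 in WL711 (SD, n = 2), a log2 difference of -0.35 (SE 0.18, 95% interval -0.77 to 0.072, limma adjusted p = 0.323). Under control watering they were -0.14 ± 0.14 in C306 and 0.27 ± 0.33 in WL711 (SD, n = 2), a difference of -0.41 (SE 0.18, 95% interval -0.83 to 0.0088, adjusted p = 0.181). Both C306 arrays lay below both WL711 arrays in each setting. Such non-overlap held for 58.8% of all probe sets under drought and 56% under control watering, with 35.2% and 33.1% lower in C306. A larger absolute cultivar difference than that of GBSS-I was read by 29.8% of all probe sets under drought and by 31.2% under control watering.

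A comparison of the cultivars over both waterings was added after these values had been seen. The difference of GBSS-I was -0.38 (SE 0.13), which is 0.769 as a fold, with a 95% interval from 0.626 to 0.944. Its unadjusted p was 0.0181 and its limma adjusted p 0.0747, so it did not pass, in a comparison where 19% of all probe sets passed. The 2 cultivars' arrays did not overlap for 23.4% of all probe sets, and 13.2% had all 4 C306 arrays below all 4 WL711 arrays. Over its 15 alternatives the adjusted p ran from 0.0219 to 0.226. It passed without WL711 control replicate 2, at -0.49 with an adjusted p of 0.0219, and with eBayes trend and robust, at an adjusted p of 0.0488. Without WL711 control replicate 1, where GBSS-I had its highest value, the difference was -0.26. Under control watering alone, the call was likewise gained without WL711 control replicate 2, at -0.64 with an adjusted p of 0.0473, and the difference was -0.18 without WL711 control replicate 1.

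WL711 control replicate 1 also stood apart in spread. The interquartile range of its centred values was 0.482, against 0.221 to 0.302 on the other 7 arrays. Together with C306 control replicate 2 and C306 drought replicate 1 it had a low mean signal of the hybridisation controls, at -1.02 to -0.87 against -0.018 to 0.13 on the other 5. The part of these array properties in the GBSS-I values was not tested, beyond the values without single arrays. With a block for these 3 arrays, the cultivar difference of GBSS-I over both waterings was -0.42 (adjusted p = 0.0776).

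BMY1 stood at -0.070 and 0.49 on the droughted C306 arrays, against -0.63 and 0.42 on the watered C306 arrays. It stood at -0.26 and 0.070 in droughted WL711, against -0.27 and 1.01 in watered WL711. The groups overlapped in every pairwise comparison, and in every group replicate 2 read higher than replicate 1. The 2 replicates of a group lay 0.56 apart in droughted C306, 1.05 in watered C306, 0.33 in droughted WL711 and 1.27 in watered WL711. In watered WL711 only 0.703% of all probe sets had a wider gap, in watered C306 1.70%, in droughted C306 4.70% and in droughted WL711 21.7%. Its residual SD was 0.627, against 0.167 for AGP-S, 0.189 for GBSS-I and a median of 0.178 over all probe sets, and 1.54% of probe sets had a larger one.

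On means, BMY1 read 0.32 in C306 (droughted minus watered, SE 0.45, 95% interval -0.70 to 1.34) and -0.46 in WL711 (SE 0.45, 95% interval -1.48 to 0.56, limma adjusted p = 0.676). The difference between these drought effects was 0.78 (C306 minus WL711, SE 0.63, 95% interval -0.66 to 2.22), and did not pass (adjusted p = 0.747). As a fold, that interval runs from 0.634 to 4.67, which allows a drought change of BMY1 in C306 either below or above that in WL711. The log2 value was 0.15 without WL711 control replicate 2 and 1.42 without WL711 control replicate 1. The C306 value was -0.20 without C306 control replicate 1, and the WL711 value was 0.17 without WL711 control replicate 2. Between cultivars, BMY1 read 0.30 under drought (C306 minus WL711, SE 0.45) and -0.48 under control watering (SE 0.45), with adjusted p of 0.748 and 0.511. The value under drought was 0.023 once C306 drought replicate 2 was left out and 0.59 once replicate 1 of that group was. Under control watering it was 0.16 without WL711 control replicate 2.

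**Figure D2:**
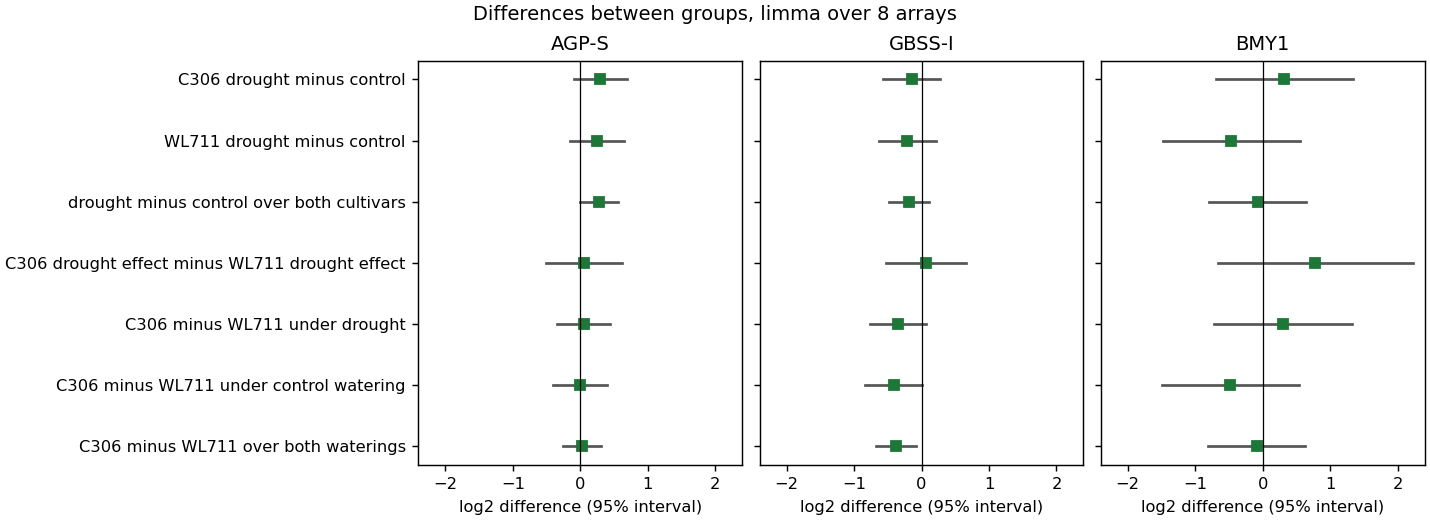
Log2 differences (horizontal axis) of the 3 genes in the 7 comparisons (vertical axis), with 95% intervals from limma over 8 arrays. The intervals of BMY1 are the widest of the 3, and only that of GBSS-I for C306 minus WL711 over both waterings, -0.68 to -0.082, leaves out 0. The intervals are not adjusted for the number of tests. That comparison was added after the values had been seen, and in it 35.3% of all probe sets had a limma unadjusted p under 0.05.

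Counted by comparison, 0 of the 3 genes passed for drought in C306, where 0.049% of all probe sets passed, and 0 of 3 in WL711, where 0.036% passed (limma). For the mean drought effect and for the difference of the drought effects it was again 0 of 3, against 0.00817% and 0.0409% of all probe sets. Between cultivars it was 0 of 3 under drought, against 6.73%, and 0 of 3 under control watering, against 11%. At an unadjusted p under 0.05, 0 of 3 passed in each of these 6 comparisons, where 7.73%, 13.8%, 11.1%, 9.79%, 21.5% and 28.8% of all probe sets did. In the comparison over both waterings it was 1 of 3, GBSS-I, against 35.3%.

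For drought, the size of change that would have passed with all 8 arrays was large. In C306 under drought the smallest absolute moderated t among probe sets that passed was 8.17, and in WL711 8.50. With its own SE, AGP-S would have needed a log2 change of 1.42 in C306 and 1.48 in WL711 to reach it, GBSS-I 1.50 and 1.57, and BMY1 3.65 and 3.80. Between cultivars under control watering, where many more probe sets passed, the changes needed were 0.64 for AGP-S, 0.68 for GBSS-I and 1.64 for BMY1. The change needed depends on how many other probe sets pass as well as on the SE, and those counts moved widely when 1 array was left out, from 9 to 421 for drought in C306 and from 0 to 49 in WL711.

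**Figure D3:**
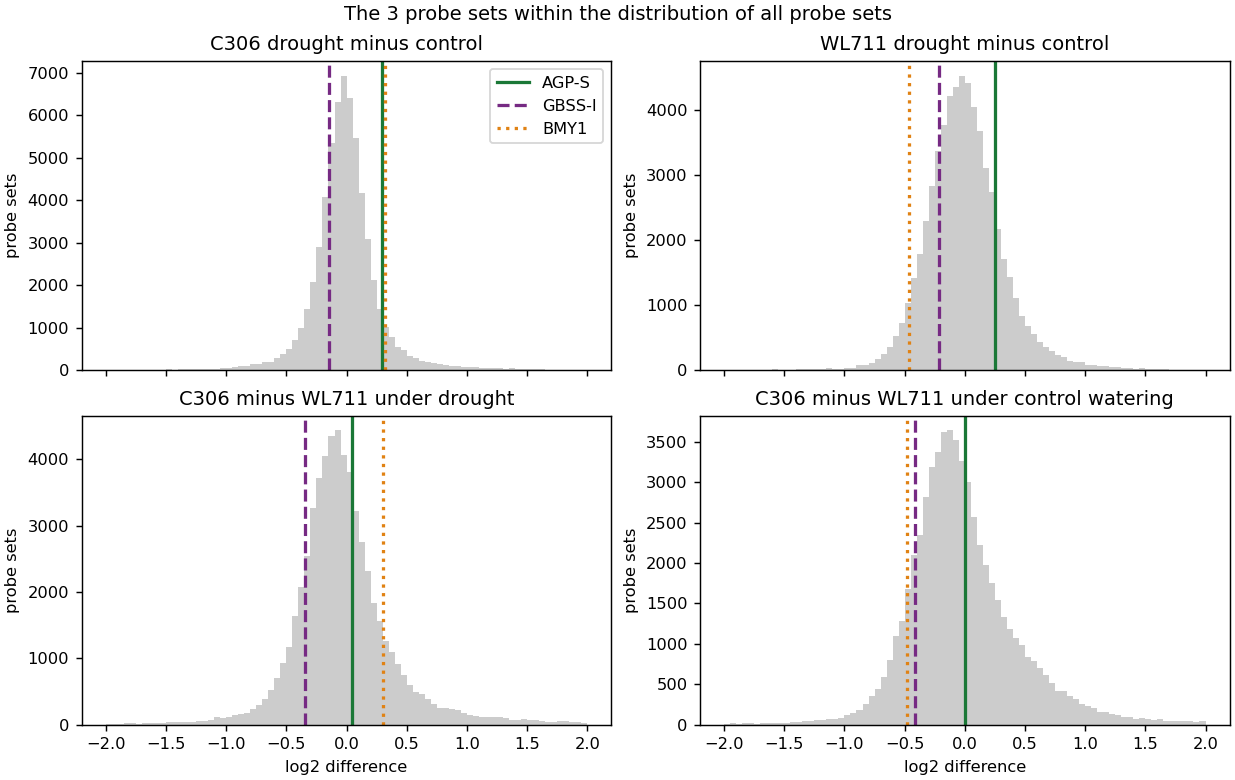
Number of probe sets (vertical axis) by log2 difference (horizontal axis, bins of 0.05, values beyond 2 in either direction not drawn) in 4 comparisons. Lines mark AGP-S, GBSS-I and BMY1, which lie within the body of the distribution or on its shoulders: in C306 under drought, 18.2%, 44.0% and 16.1% of all probe sets had a larger absolute difference.

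The 3 genes did not share a pattern over the arrays. Pearson's r over the 8 arrays was 0.32 between AGP-S and BMY1, -0.17 between AGP-S and GBSS-I, and -0.024 between GBSS-I and BMY1. Spearman's rho was 0.43, -0.21 and -0.048 for the same pairs. The 8 arrays share 4 group means, so these values describe the arrays and carry no test.

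Each gene was also set against 99 other named genes by Pearson's r over the same 8 arrays. AGP-S was most like CAT1, a catalase gene that removes hydrogen peroxide (r = 0.88), NCBP, listed under a name for a cap-binding protein (r = 0.84), and eIF-4E-1, a translation initiation factor that binds the mRNA cap (r = 0.82). Its lowest r was -0.83, with the gliadin gene gli-2 (LOC543210). Spearman's rho with AGP-S was lower, at 0.67 for CAT1, 0.67 for NCBP and 0.76 for eIF-4E-1. AGP-S, CAT1 and NCBP each had their lowest value on C306 control replicate 1. None of CAT1, NCBP and eIF-4E-1 passed for drought in either cultivar. A second probe set of CAT1 had an r of -0.054 with AGP-S, so the likeness was that of 1 probe set. Of all probe sets, named or not, 0.283% had an r with AGP-S at least as high as that of CAT1.

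GBSS-I was most like 2 serpin genes, Serpin-Z2A (r = 0.94) and Serpin-Z2B (r = 0.93), which encode protease inhibitors known from the wheat grain, and ALP, an avenin-like seed protein gene (r = 0.90). The lowest r was -0.88, with Hmgb3, for a high mobility group protein. On the arrays, Serpin-Z2B reached 0.99 and ALP 0.72 on WL711 control replicate 1, where GBSS-I had its highest value, 0.50. The 3 other probe sets of ALP had an r of 0.86, 0.46 and 0.27 with GBSS-I. An r at least as high as that of Serpin-Z2A was found for 0.438% of all probe sets.

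Grain genes as a list were set beside GBSS-I for this reason. The 3 serpins, averaged per array, stood between -0.25 and -0.076 in droughted C306, -0.14 and -0.019 in watered C306, 0.053 and 0.16 in droughted WL711, and 0.056 and 0.59 in watered WL711. The cultivars did not overlap in this average, as for GBSS-I and for 23.4% of all probe sets. Serpin-Z2A and Serpin-Z2B had been picked as most like GBSS-I on these same arrays, so the average gives no separate evidence. Serpin-Z2B itself overlapped, at 0.051 on C306 control replicate 2 and -0.051 on WL711 control replicate 2. None of the 3 serpins passed between cultivars, in either watering. A further 8 gliadin, glutenin and avenin-like genes, listed after the annotation had been read, stood between -0.14 and -0.093 in droughted C306, -0.043 and 0.054 in watered C306, -0.0082 and 0.063 in droughted WL711, and -0.0080 and 0.24 in watered WL711. The cultivars overlapped in the average of these 8. Under control watering 2 of the 8 read higher in C306, up to 0.37 for gli-2 (LOC543212), and under drought 1 did. None of these 8, each by 1 probe set, passed between cultivars in either watering or for drought in either cultivar. Of the further probe sets of these genes, 1 for abu-7 passed under control watering, at -0.85 (C306 minus WL711, limma adjusted p = 0.0146). It also passed over both waterings, at -0.73 (adjusted p = 0.00366). Of all probe sets, 11% passed under control watering and 19% over both waterings. The part of the grain genes in the GBSS-I values was not tested.

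BMY1 had no close match among the 99 named genes. The highest r was 0.73, with PMM, for phosphomannomutase, followed by 0.65 each for PFK, a phosphofructokinase of glycolysis, and PCS1, a phytochelatin synthase of metal binding. Of all probe sets, named or not, 1.17% had an r with BMY1 at least as high as that of PMM. An r above 0.8 was reached by 0 of 99 genes for BMY1, 3 for AGP-S and 11 for GBSS-I. The median r over these 99 already differed, at 0.019 for BMY1, -0.10 for AGP-S and 0.27 for GBSS-I. The lowest r was -0.88, with another gli-2 gene (LOC543212). A second probe set of PMM had an r of 0.28 with BMY1, and a second one of that gli-2 gene an r of 0.20.

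**Figure D4:**
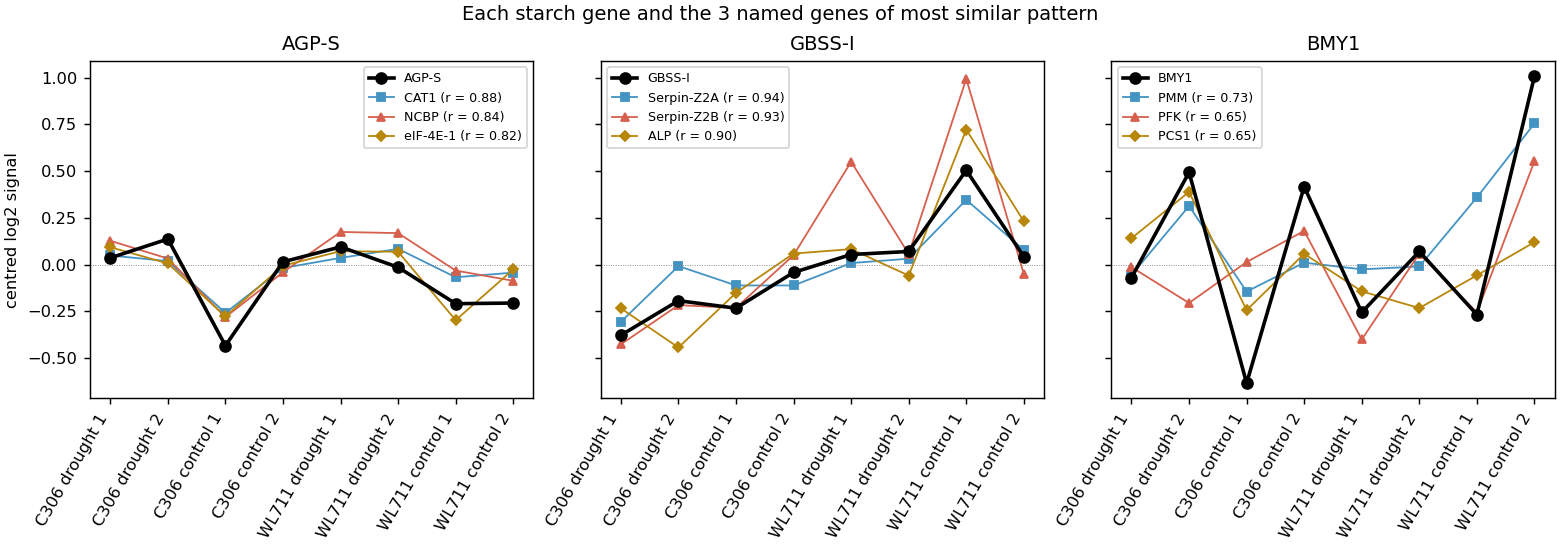
Centred log2 signal (vertical axis) on the 8 arrays (horizontal axis, replicate number after the group) of each starch gene in black and of the 3 named genes with the highest Pearson's r in colour. GBSS-I, both serpins and ALP are all highest on WL711 control replicate 1, while BMY1 departs from its 3 genes on C306 control replicate 1.

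Few other genes of the starch pathway could be named, since the annotation paired 1273 of the probe sets with 771 genes and only 102 of these had a name other than LOC with digits. Lists for starch synthesis and for sucrose matched 0 further genes, and the list for starch breakdown matched BMY1 alone. The list of amylase inhibitors matched WMAI-1, whose product inhibits amylases of insects. Its log2 difference was -0.040 in C306 (droughted minus watered, SE 0.19) and -0.59 in WL711 (SE 0.19, limma adjusted p = 0.261), and it did not pass in any comparison.

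From names read afterwards, 4 more genes were near the pathway. IVR1, listed under a name for an invertase that splits sucrose but also as atpA, read 0.090 in C306 and -0.036 in WL711 for droughted minus watered plants. FBP, for a fructose-bisphosphatase on the way to sucrose and starch, read -0.016 and -0.076. The 2 genes called ATI, a name for amylase/trypsin inhibitors, read -0.23 (LOC543281) and -0.22 (LOC543286) in C306, and -0.45 and -0.56 in WL711. None of these 4 passed for drought in either cultivar, where 0.049% of all probe sets passed in C306 and 0.036% in WL711. Between cultivars under control watering, ATI (LOC543286) was lower in C306 by a log2 difference of -0.75 (SE 0.20, adjusted p = 0.04999), and the other 3 did not pass, at -0.49 for FBP (SE 0.17), -0.22 for IVR1 and -0.14 for ATI (LOC543281). Of all probe sets, 11% passed under control watering and 19% over both waterings. Over both waterings, FBP at -0.46 (limma adjusted p = 0.0316) and ATI (LOC543286) at -0.58 (adjusted p = 0.0258) passed as lower in C306. These calls were not stable: ATI (LOC543286) was lost in 15 of 17 alternatives under control watering (adjusted p 0.0346 to 0.227) and in 7 of 16 over both waterings (0.0154 to 0.105), and FBP in 8 of 16 (0.0224 to 0.123). They also depended on the probe set that stood for the gene. Both other probe sets of ATI (LOC543286) read -0.50 and -0.33 under control watering and did not pass, and over both waterings 1 of them passed, at -0.36 (adjusted p = 0.0473), and the other did not, at -0.32. The other probe set of FBP read -0.22 over both waterings and did not pass.

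Green leaf genes gave no call for drought beside these values. They were rbcl of Rubisco, with 28 probe sets, and PsbO and PsbP of photosystem II, with 1 and 2. The probe sets of rbcl ran from -0.70 to 0.26 in C306 and from -0.98 to 0.36 in WL711 for droughted minus watered plants. Of these, 0 of 28 passed in either cultivar, where 0.049% of all probe sets passed in C306 and 0.036% in WL711. Between cultivars, 1 of the 28 passed as lower in C306 under drought, 5 under control watering and 10 over both waterings, where 6.73%, 11% and 19% of all probe sets passed in either direction. For PsbP, 1 of 2 passed as lower in C306 under control watering and over both waterings. Their part in the values of the starch genes was not tested. Because values were centred, these genes show differences between arrays and not whether the tissue was leaf.

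**Figure D5:**
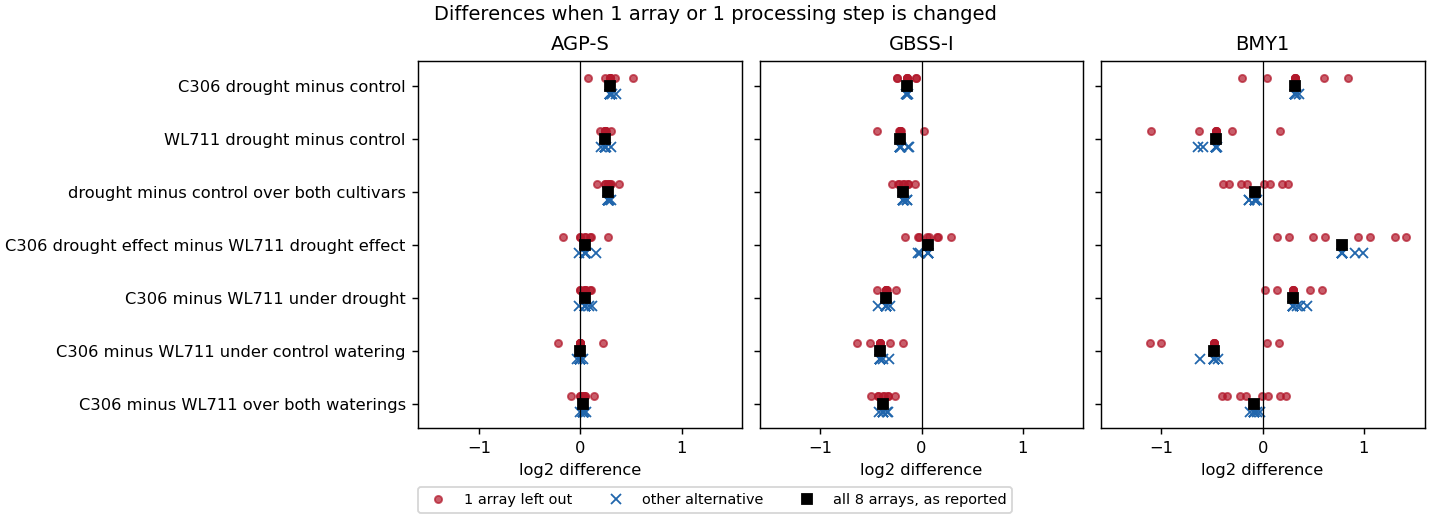
Log2 differences (horizontal axis) of the 3 genes in the 7 comparisons (vertical axis) with all 8 arrays (black), with 1 array left out (red) and under other processing (blue). Differences of GBSS-I between cultivars stay below 0 throughout, those of AGP-S for drought stay above 0, and those of BMY1 for drought fall on both sides of 0 when single arrays are left out.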

How the data were processed

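The deposited table held log2 values of 61290 probe sets on 8 Affymetrix arrays. RMA is named in the submitters' processing notes, without a version. Values were found centred per probe set, with a largest absolute median of 5e-07, a step not recorded in the labels. Leaving out 111 control probe sets gave 61179. The fit was limma 3.58.1 in R 4.3.3 (lmFit with 4 group means, contrasts.fit, eBayes without trend, 4 residual and 4.63 prior degrees of freedom), with Benjamini-Hochberg adjustment, and was tested on simulated data. Of 771 annotated genes, 770 were found in the RefSeq gene table.

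All probe sets of AGP-S, GBSS-I and BMY1 were named, with the 3 named genes of highest and the 1 of lowest Pearson's r for each. For other genes 1 probe set stood for the gene, a plain _at one first, then _a_at, _s_at and _x_at, then by identifier. Members and lists were chosen with earlier results of these data known. No 2 arrays were identical. Alternatives were a replicate block, a block for low hybridisation controls (mean under -0.5), equal medians, quantile normalization once more, eBayes with a trend and robust, weights per array, removal of _x_at, _s_at and _a_at probe sets (GBSS-I among them), a minimum log2 change of 1, the compared arrays alone, and each array left out.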

Additional observations from a re-analysis of the deposited data

How the results depend on the processing

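Among the 3 genes, drought differences of AGP-S and cultivar differences of GBSS-I kept their sign under every alternative run, and a call was gained 3 times, each for GBSS-I between cultivars. With 1 array left out, differences that changed sign ran from -0.20 to 0.85 for BMY1 in C306 under drought, -1.10 to 0.17 for BMY1 and -0.44 to 0.020 for GBSS-I in WL711, and -0.39 to 0.25 for BMY1 over both cultivars. The difference of drought effects ran from -0.18 to 0.27 for AGP-S and -0.17 to 0.29 for GBSS-I. Between cultivars, AGP-S ran from -0.0083 to 0.10 under drought, -0.23 to 0.22 under control watering and -0.090 to 0.13 over both waterings, and BMY1 from -1.11 to 0.16 under control watering and -0.41 to 0.23 over both. With the hybridisation-control block, the difference of drought effects was -0.0091 for AGP-S and -0.015 for GBSS-I, and AGP-S between cultivars was -0.011 under drought and -0.0066 over both waterings. Quantile normalization once more gave -0.031 for GBSS-I in the difference of drought effects, and equal medians gave 0.030 for AGP-S between cultivars under control watering. The cause was not tested.

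Counts over all probe sets, 30 for drought in C306, 22 in WL711, 5 over both cultivars and 25 for the difference, ran from 9 to 421, 0 to 49, 0 to 171 and 2 to 199 with 1 array left out, lowest without WL711 control replicate 1 (in C306 equally without replicate 2) and highest without C306 control replicate 2, or for WL711 without WL711 control replicate 2. Between cultivars, 4120 under drought, 6714 under control watering and 11632 over both waterings ran from 1626 to 4433, 2854 to 9509 and 5528 to 14680. With eBayes trend and robust, 0 passed in C306, 5 in WL711 and 0 over both cultivars. Array weights gave 65 in C306, 1 in WL711, and 7019 and 3516 between cultivars under drought and control watering. The hybridisation-control block gave 4 in WL711, 25 over both cultivars and 2475 between cultivars under drought. Without _x_at, _s_at and _a_at probe sets, 16 passed in C306 and 14 for the difference. A minimum change of 1 gave 2604, 2971 and 2693 between cultivars under drought, control watering and both. The compared arrays alone gave 3 in C306 and 2965 between cultivars under control watering. Quantile normalization once more gave 1 over both cultivars, lower, against 3 higher and 2 lower. It gave 16 higher and 11 lower in C306, against 24 and 6, and 4 higher and 12 lower in WL711, against 10 and 12.

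The labels tie same-numbered replicates of different groups by their number alone. Over all probe sets, deviations of same-numbered arrays correlated at -0.093 to 0.11 between groups. This does not speak for single probe sets, and for BMY1 replicate 2 read higher than replicate 1 in every group. With the replicate block 81 passed for drought in WL711, and none of the 3 genes changed its call. For BMY1 the difference of drought effects had a limma unadjusted p of 0.0493 and an adjusted p of 0.516 with that block. Without it the unadjusted p was 0.248. Signal over background could not be read from centred values, so no filter on dim probe sets was run.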
